A study of Mus musculus with 12 samples.

Results

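The comparison described here set colon adenoma cells titled Mex3A+ LGR5- in the labels (Mex3a single-positive cells) against cells of the same mice titled Mex3A- LGR5 + (Lgr5 single-positive cells). The 6 arrays, 3 per population, were chosen by these titles from the 12 arrays of the series and paired by the mouse number in the title. RNA levels were read as log2 signals on an Affymetrix array for mouse, and 12595 of 17097 genes, each by its brightest probe set, passed a filter on low signal. The other 6 arrays held the double-positive and the double-negative cells of the same mice. Each population was taken once from each of 3 mice, MKL347, MKL358 and MKL367, and each replicate was a pool of several colon adenomas. All titles carry ki/+, a genotype mark that both populations shared and that the labels do not explain. How Mex3A and LGR5 status was read, the tumour model and the age of the mice are not stated in the labels or files used. The pools held 500 cells for MKL358 and 2000 cells for MKL347 and MKL367, and the RNA of every pool was amplified before labelling.

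Lgr5 is a receptor for R-spondins that strengthens Wnt signalling and marks the cycling stem cells of the crypt base in the intestine. Mex3a is an RNA-binding protein that marks a slowly dividing subset of intestinal stem cells and has been followed in chemotherapy-tolerant colorectal tumour cells. In adenomas the Wnt pathway is switched on without its normal limits, and tumour cells still spread over states that resemble stem cells, absorptive colonocytes and mucus-making goblet cells. The comparison of the 2 single-positive populations asks how cells marked by one gene alone differ from cells marked by the other alone.

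Array medians lay between 4.86 and 4.92 on the log2 scale. Epithelial markers were measured on all 6 arrays, with Epcam between 11.44 and 11.74. Ptprc, the pan-leukocyte marker, and Cd3e of T cells stayed below the filter level of 4.40 on all 6. Other leukocyte markers were above it on all 6, among them Cd68 at 5.22 to 5.77 and Csf1r at 5.79 to 6.06. The Lgr5 single-positive pool of MKL367 stood apart in fibroblast genes. Col3a1 was 9.34 there and 4.81 to 5.58 on the other 5 arrays, Dcn was 7.25 against 4.60 to 4.88, and Col1a1 was 8.70 against 6.14 to 6.74. The summed linear signal of 30 fibroblast and smooth muscle markers was 4391 to 5965 in the Lgr5 single-positive pools and 4621 to 5061 in the Mex3a single-positive pools, with 17 to 20 and 18 of the 30 markers above the filter level. Both pools of MKL358 stood apart in neutrophil genes, the Lgr5 single-positive pool most. S100a8 was 7.50 in that pool and 6.42 in the Mex3a single-positive pool, against 4.12 to 4.76 in the pools of the other mice. The 17 neutrophil markers summed to 522 to 1668 in the Lgr5 single-positive pools and 570 to 873 in the Mex3a single-positive pools. The part of these cells in the differences was not tested. The counts, the lists and each called gene named below were also computed without each array and without each mouse. In pools of cells, fewer cells of a type and less RNA per cell cannot be told apart.

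The transcripts of both sorted genes followed the labels. The Mex3a transcript was 7.03, 6.78 and 6.91 (log2 signal, mice MKL347, MKL358 and MKL367, the order used throughout) in the Mex3a single-positive pools. It was 6.28, 6.57 and 6.47 in the Lgr5 single-positive pools. The 2 populations did not overlap, and the difference was 0.47 ± 0.14 (SE, n = 3 mice; limma adjusted p = 0.0283, higher in 3 of 3 mice). The Lgr5 transcript was 7.33, 7.03 and 7.49 in the Mex3a single-positive pools and 8.06, 8.05 and 7.95 in the Lgr5 single-positive pools. These did not overlap either, and the difference was -0.73 ± 0.15 (limma adjusted p = 0.00407). Mex3a averaged 7.02 in double-positive and 6.12 in double-negative cells. Lgr5 averaged 8.38 in double-positive and 6.01 in double-negative cells, so that the Mex3a single-positive cells, sorted as Lgr5 negative, carried 7.29, a level between the double-negative and the Lgr5 single-positive cells. Both calls were sensitive to the fit. Without the pairing by mouse the limma adjusted p was 0.125 for Mex3a and 0.0521 for Lgr5. Over the fits that left out 1 mouse or 1 array, that of Mex3a ran from 0.0135 to 0.230 and was lost in 6 of 9, and that of Lgr5 ran from 0.00226 to 0.0610 and was lost only without MKL358.

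**Figure D1:**
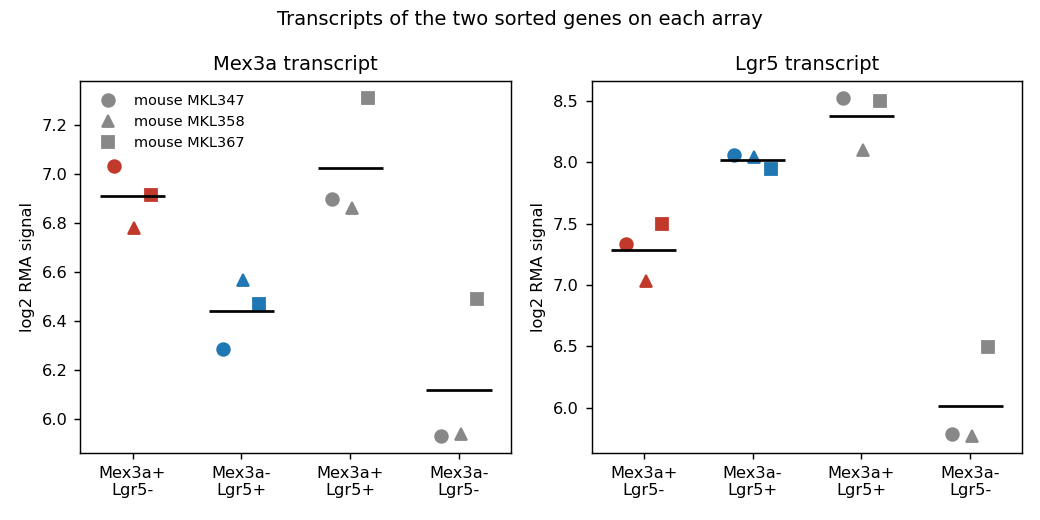
Log2 RMA signal of the Mex3a transcript (left) and the Lgr5 transcript (right) on each of the 12 arrays, by population. Symbols stand for mice and black lines for group means. The single-positive populations did not overlap for either gene, and Lgr5 lay near 7.3 in Mex3a single-positive cells against 6.01 in double-negative cells.

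Of the 12595 genes, 2728 (21.7%) were called at a limma adjusted p under 0.05. The Mex3a single-positive cells were higher for 846 (6.72%) and lower for 1882 (14.9%). At least 2-fold differences were found in 301 of them, 116 higher (0.921%) and 185 lower (1.47%). The sign was the same in 3 of 3 mice for 2721 of the called genes. The median difference over all genes was -0.03, with an interquartile range of -0.19 to 0.11. The 3 pools of one population lay wholly above or below the 3 of the other for 3691 genes (29.3%), 2157 of them called. The first principal component of the 6 arrays held 57.9% of the variance and parted the populations. Without the pairing by mouse, 692 genes were called (178 higher and 514 lower), all of them among the 2728. Leaving out a mouse gave 1509 calls without MKL347, 1840 without MKL358 and 1333 without MKL367, and leaving out 1 array gave 1728 to 2038. After a further quantile normalization 1078 genes were higher and 1236 lower, so that the excess of lower genes (69.0% of calls) was smaller there (53.4%).

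The 15 largest rises in Mex3a single-positive cells held a Wnt inhibitor, metallothioneins and genes known from liver and pancreas. Mt4, a zinc-binding metallothionein, was 9.12, 9.48 and 10.37 in the Mex3a single-positive pools. It was 5.78, 6.99 and 8.74 in the Lgr5 single-positive pools, and the difference was 2.49 ± 0.28 (limma adjusted p = 0.000111). The pools did not overlap, and both populations were highest in MKL367. The related Mt3 was 9.74, 9.59 and 9.98 against 7.59, 7.57 and 8.26, a difference of 1.97 ± 0.18 (adjusted p = 2.99e-05). Mt1, the widely induced member of the family, was 10.29, 10.54 and 10.36 against 10.01, 10.57 and 10.18. These overlapped and Mt1 was not called (0.15 ± 0.09, adjusted p = 0.255). Mt4 and Mt3 are neighbours in the mouse genome with no coding gene between them (RefSeq, GRCm38.p6).

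Apcdd1, a membrane protein that blocks Wnt ligands at the cell surface, was 9.72, 9.59 and 10.03 in Mex3a single-positive pools and 7.47, 6.88 and 7.77 in Lgr5 single-positive pools. The gap between the populations was wider than the spread within either, at 2.41 ± 0.19 (5.32-fold; limma adjusted p = 1.43e-05). Its other probe sets differed by 2.64 and 2.74. Pnliprp2 and Pnliprp1, lipases of the pancreatic family and also direct neighbours in the genome, differed by 2.10 ± 0.23 and 2.21 ± 0.36. Alb, which encodes serum albumin, was 8.79, 8.00 and 8.61 against 6.69, 5.74 and 6.40 (2.19 ± 0.37, adjusted p = 0.00129). No pool of one population reached the range of the other for these 3 genes. Of 16 liver and pancreas genes measured, these 3 and Afp (0.33 ± 0.09) were called higher, Spink1, Ttr and Cela1 were called lower, and the median difference was -0.01. Pnliprp2 also stands on the list of deep crypt secretory and Paneth genes of the intestine. Of 10 measured there, 2 were higher and 2 lower (median -0.01), against 6.72% higher and 14.9% lower among all genes. Afp, Spink1, Ttr and Cela1 lost their calls without the pairing (adjusted p = 0.0759, 0.296, 0.0884 and 0.0924) and without at least 1 mouse.

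The other rises of this size spanned several functions. Gstm7, a glutathione transferase, was 8.14, 6.72 and 8.05 against 5.41, 4.87 and 5.54 (2.36 ± 0.22). Prex2, an exchange factor for the GTPase Rac, was 7.26, 6.71 and 7.34 against 4.93, 4.61 and 5.54 (2.07 ± 0.11). Plagl1, an imprinted zinc-finger factor, was 9.03, 9.03 and 9.77 against 6.98, 6.84 and 7.87 (2.05 ± 0.13). In each the lowest Mex3a single-positive pool lay above the highest Lgr5 single-positive pool. Cd244a, a receptor best known from natural killer cells, differed by 2.02 ± 0.17, and the metalloprotease Adam12 by 1.92 ± 0.25. Plat, which encodes tissue plasminogen activator, differed by 1.92 ± 0.22, Erich3 by 1.91 ± 0.24 and the homeobox factor Irx5 by 1.87 ± 0.17, with a mean of 4.25 in Lgr5 single-positive pools that lies below the filter level. Abcc2, an export pump for conjugated drugs and bile pigments, was 7.62, 7.24 and 7.75 against 5.52, 5.48 and 6.01 (1.87 ± 0.21). In double-positive cells Abcc2 averaged 6.77, below the Mex3a single-positive cells, while Plagl1 averaged 9.20 and Apcdd1 9.64, near them. Without the pairing Mt4, Pnliprp1 and Erich3 lost their calls (adjusted p = 0.0808, 0.0759 and 0.0984), and the other 12 of the 15 rises kept them. With the mean of all probe sets in place of the brightest, Gstm7 differed by 1.17, Prex2 by 1.14 and Erich3 by 1.16.

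**Figure D2:**
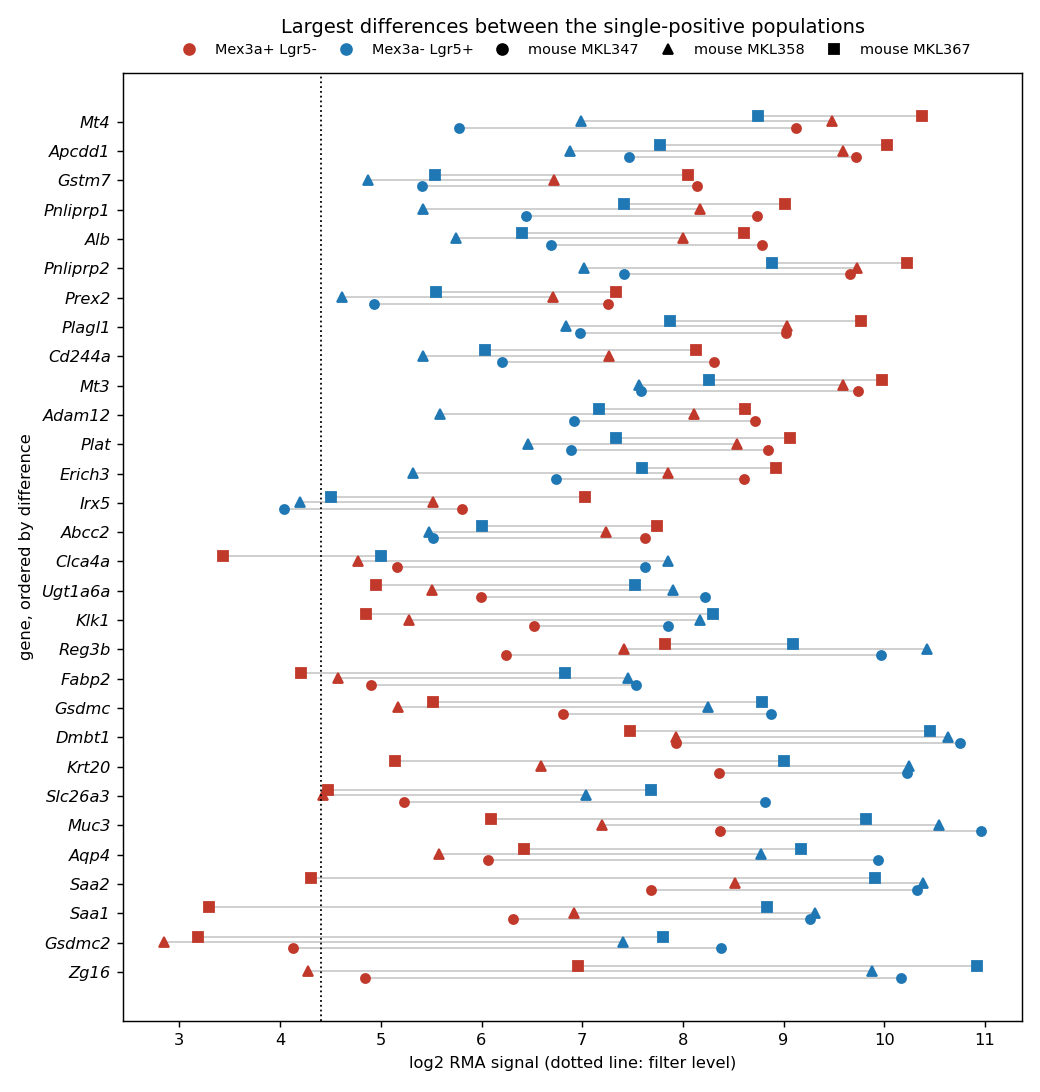
Log2 RMA signal of the 15 genes with the largest rise and the 15 with the largest fall in Mex3a single-positive (red) against Lgr5 single-positive pools (blue), 1 pair of symbols per mouse. The pairs point the same way in all 3 mice for each gene, and red and blue symbols overlap only for Clca4a.

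Of the 15 largest falls, 10 stood on the lists of colonocyte, goblet cell or mucosal defence genes. The others were Aqp4 and Clca4a of the crypt base stem cell list, the gasdermins Gsdmc2 and Gsdmc, and Ugt1a6a, which is on none of the lists. Zg16, a lectin secreted with goblet cell mucus, was 4.84, 4.27 and 6.96 in Mex3a single-positive pools and 10.16, 9.87 and 10.92 in Lgr5 single-positive pools. The difference was -4.96 ± 0.42 (31.1-fold; limma adjusted p = 2.06e-05), and Zg16 was highest in MKL367 in both populations. Gsdmc2, of the pore-forming gasdermin family, was 4.13, 2.85 and 3.18 against 8.38, 7.41 and 7.80 (-4.48 ± 0.23). All 3 Mex3a single-positive values of Gsdmc2 lay below the filter level. Its neighbour Gsdmc was 6.81, 5.18 and 5.52 against 8.87, 8.25 and 8.79 (-2.80 ± 0.25), also without overlap. Of the other 3 gasdermins measured, Gsdma went the other way (1.40 ± 0.12, adjusted p = 2.46e-05, but 0.0794 without the pairing), and Gsdma2 and Gsdme were not called.

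Saa1 and Saa2, acute phase proteins that the gut epithelium makes on contact with microbes, varied most within a population. Saa1 was 6.32, 6.92 and 3.30 in Mex3a single-positive pools against 9.26, 9.31 and 8.84 in Lgr5 single-positive pools. The fall was -3.63 ± 0.85 (limma adjusted p = 0.00947), and the lowest pool was that of MKL367. Without that array the difference was -2.27. Saa2 was 7.68, 8.51 and 4.31 against 10.32, 10.38 and 9.91 (-3.37 ± 0.93, adjusted p = 0.0230). Its call was lost without the pairing (0.0681), without MKL358 (0.0558), without the Mex3a single-positive pool of MKL367 (difference -1.85, 0.0967) and without each Lgr5 single-positive pool (0.0612 to 0.0809). The probe set used for Saa2 is of the design class whose probes can match more than 1 transcript, so that signal of Saa1 in it cannot be told apart. Those used for Zg16, Ugt1a6a, Abcc2 and Lrig1 are of this class too. Those of Pnliprp2, Plagl1, Klk1 and Sox17 are of another class with a like limit. Signal of related transcripts cannot be told apart in any of them.

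Among the other large falls, Aqp4, a water channel, was 6.07, 5.57 and 6.42 against 9.94, 8.77 and 9.17 (-3.28 ± 0.28). Slc26a3, the chloride and bicarbonate exchanger of the colon surface, was 5.23, 4.42 and 4.48 against 8.82, 7.04 and 7.68 (-3.13 ± 0.21, limma adjusted p = 5.24e-06). The Mex3a single-positive pools of MKL358 and MKL367 sat just above the filter level for Slc26a3. Krt20, a keratin of differentiated gut epithelium, was 8.36, 6.60 and 5.14 against 10.22, 10.24 and 9.0 (-3.13 ± 0.43). Dmbt1, a secreted protein that binds bacteria, was 7.93, 7.93 and 7.48 against 10.75, 10.63 and 10.46 (-2.84 ± 0.19). The membrane mucin Muc3 differed by -3.22 ± 0.36, and the intestinal fatty acid carrier Fabp2 by -2.71 ± 0.25. None of these 6 genes overlapped between the populations. Reg3b, an antibacterial lectin, differed by -2.67 ± 0.40, the kallikrein Klk1 by -2.56 ± 0.35 and Ugt1a6a, which attaches glucuronic acid to drugs, by -2.40 ± 0.12. Clca4a overlapped (5.17, 4.78 and 3.43 against 7.62, 7.85 and 5.0; -2.37 ± 0.36), and its adjusted p was 0.0701 without the pairing. With the mean of all probe sets Slc26a3 differed by -1.77 and Saa2 by -1.71. In double-positive cells the mean of Zg16 was 5.67, of Aqp4 5.52 and of Slc26a3 4.47, close to the Mex3a single-positive cells, and in double-negative cells they were 11.09, 9.61 and 9.09.

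Whole groups of differentiation genes lay lower in the Mex3a single-positive cells. Of 33 colonocyte genes measured, 22 were lower, 1 was higher and the median difference was -0.76, against -0.03 over all genes and 14.9% of all genes lower. Ceacam20, an adhesion protein of the microvilli, was 5.48, 4.98 and 4.58 against 7.77, 7.29 and 6.96 (-2.32 ± 0.16). Guca2a, the precursor of the hormone guanylin, was 9.56, 9.40 and 8.85 against 10.84, 10.81 and 10.34 (-1.39 ± 0.15). Car1, a carbonic anhydrase, was 8.23, 7.26 and 7.58 against 9.77, 9.72 and 9.30 (-1.91 ± 0.22). All 3 were lower in each mouse and did not overlap. The single higher colonocyte gene was Slc9a3, the apical sodium and proton exchanger, at 8.20, 7.05 and 8.17 against 6.64, 5.58 and 6.69 (1.50 ± 0.11, limma adjusted p = 1.19e-05, but 0.0781 without the pairing). Without the pairing 14 colonocyte genes were lower and none higher.

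Of 26 goblet cell genes, 21 were lower, none was higher and the median difference was -0.81. Creb3l1, a transcription factor of secretory cells, was 7.04, 6.74 and 6.34 against 8.05, 7.90 and 7.61 (-1.15 ± 0.13, limma adjusted p = 0.000102). Galnt12, which starts the sugar chains of mucins, was 6.21, 5.67 and 5.63 against 7.12, 6.51 and 6.89 (-1.0 ± 0.12). Retnlb, a goblet cell peptide active against bacteria, was 5.38, 5.85 and 5.33 against 6.99, 7.67 and 6.91 (-1.67 ± 0.22). No pool overlapped for these genes. Spdef, a factor of goblet cell maturation, differed by -0.99 ± 0.19, the mucus partner Tff3 by -0.81 ± 0.15 and Agr2, which folds mucins, by -0.85 ± 0.13. Atoh1, the factor that opens the secretory fate, was 7.25, 6.50 and 6.43 against 7.69, 7.41 and 7.72, and its call was lost without MKL367 (adjusted p = 0.112). The call of Atoh1 held in 14 of 19 alternatives. It was also lost without the pairing, without the Mex3a single-positive pool of MKL358 or MKL367, and without the Lgr5 single-positive pool of MKL367. Without the pairing 11 goblet cell genes were lower (Tff3 had an adjusted p of 0.0521), and 14 without MKL367.

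The transcription factors that set intestinal identity moved the same way, with 11 of 19 lower, none higher and a median of -0.56. Cdx1, a homeobox factor of the gut lining, was 8.18, 8.60 and 7.77 against 9.54, 9.54 and 9.16 (-1.23 ± 0.14, limma adjusted p = 0.000128). Its relative Cdx2 was 7.26, 6.72 and 6.77 against 8.13, 7.56 and 7.88 (-0.94 ± 0.13). Hnf4a, a nuclear receptor of differentiated epithelium, was 9.55, 9.77 and 9.24 against 10.39, 10.25 and 10.11 (-0.73 ± 0.10). These factors did not overlap between the populations. Nr1h4, the bile acid receptor, differed by -1.04 ± 0.13, Klf4 by -0.90 ± 0.10 and the vitamin D receptor Vdr by -0.74 ± 0.12. Without the pairing 4 of the 19 were lower, among them Cdx1, Cdx2, Hnf4a and Nr1h4, while Klf4 and Vdr had an adjusted p of 0.0745 and 0.0549.

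Of 21 brush border genes, 12 were lower and none higher (median -0.45). Cdhr5, a cadherin that links neighbouring microvilli, was 8.07, 8.05 and 7.43 against 9.47, 9.44 and 8.82 (-1.39 ± 0.09). Its partner Cdhr2 differed by -1.89 ± 0.23 and the actin bundler Vil1 by -0.89 ± 0.10. All 3 kept their calls without the pairing and without each mouse. Of 19 mucosal defence genes, 10 were lower and 3 were higher (median -0.36). Pigr, which carries antibodies into the gut lumen, was 8.71, 9.21 and 8.51 against 9.85, 9.90 and 9.81 (-1.04 ± 0.12). Lcn2, which binds bacterial iron carriers, went the other way at 10.90, 10.00 and 10.70 against 9.17, 8.41 and 9.40 (1.54 ± 0.22, limma adjusted p = 0.000526). The pools of Pigr and of Lcn2 did not overlap. Of 27 general epithelial genes, 17 were lower and 1, the claudin Cldn4, was higher (0.52 ± 0.08), with a median of -0.25. Epcam itself was 11.50, 11.44 and 11.47 against 11.71, 11.61 and 11.74 (-0.22 ± 0.04), and its call was lost without the pairing (adjusted p = 0.0603), without MKL367 (0.0755) and with the mean of all probe sets (difference -0.10, 0.250). Cldn4 had 0.0917 without the pairing, and 7 of the 27 were lower then.

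**Figure D3:**
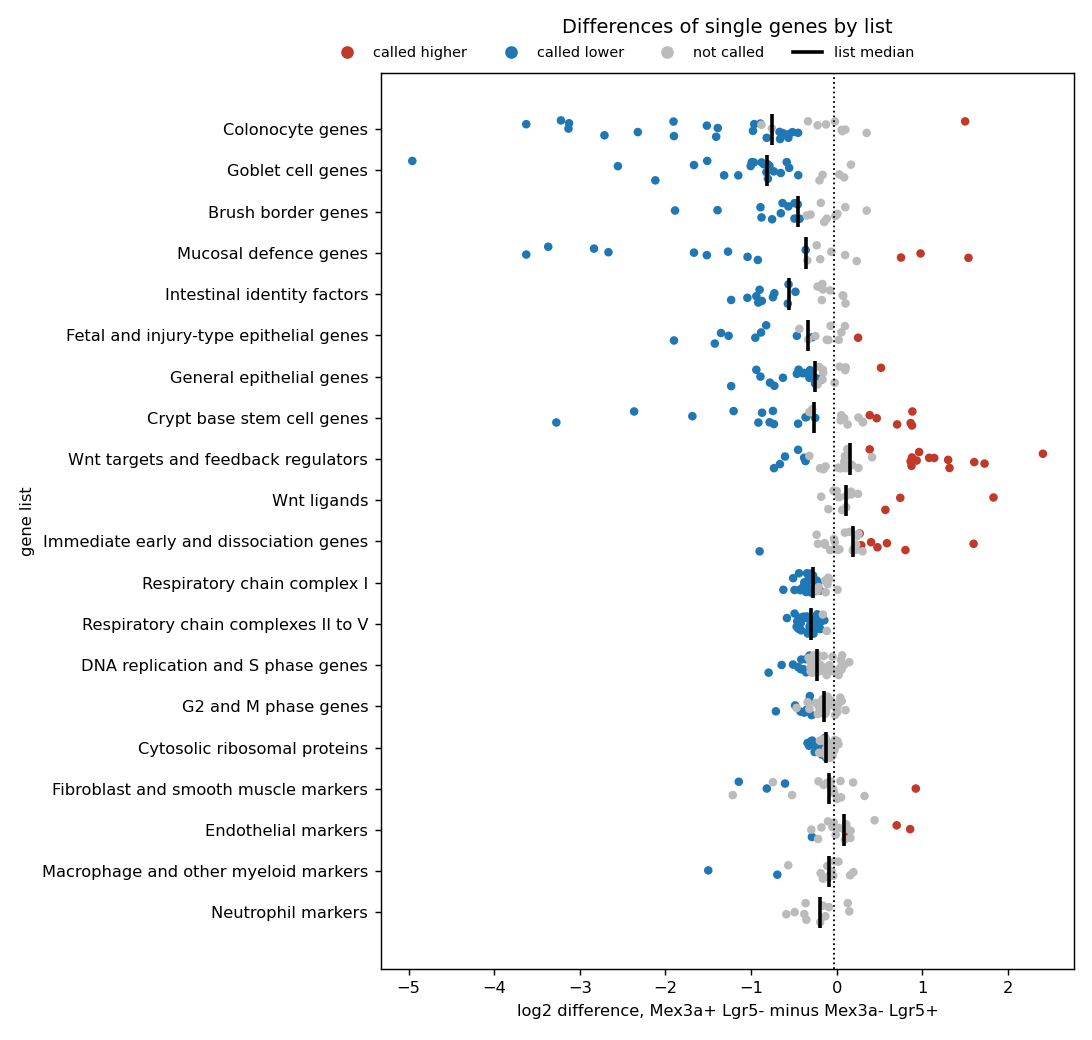
Log2 difference of each measured gene, Mex3a single-positive minus Lgr5 single-positive, by gene list. Red and blue points were called higher and lower by limma, grey points were not called, black bars are list medians and the dotted line is the median of all genes at -0.03. Colonocyte and goblet cell genes lie mostly left of that line (medians -0.76 and -0.81), and Wnt targets lie on both sides (median 0.15).

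Genes of fetal or injured epithelium were not higher as a group. Of 19 measured, 9 were lower and 1, Ly6e, was higher (0.25 ± 0.05), with a median of -0.33. Il1rn, which encodes the antagonist of the interleukin receptor, was 7.32, 8.28 and 6.76 against 8.48, 9.27 and 8.39 (-1.26 ± 0.12, limma adjusted p = 4.26e-05). The pools did not overlap, and MKL358 was highest in both populations. The gap junction protein Gja1 differed by -0.95 ± 0.11 and the complement regulator Cd55 by -1.35 ± 0.19 (-0.77 with the mean of all probe sets). Without the pairing none of the 19 was called, and these 3 had an adjusted p of 0.0937, 0.10 and 0.101.

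Genes named for the stem cells of the crypt base did not move together. Of 28 measured, 13 were lower and 6 higher in Mex3a single-positive cells, with a median of -0.27. The 13 include Lgr5 and the 6 include Mex3a, the genes on which the populations were sorted. The lower members included Aqp4, described above, and the chloride channel regulator Clca3b at 7.84, 7.86 and 6.29 against 9.36, 9.15 and 8.54 (-1.69 ± 0.17, limma adjusted p = 4.73e-05). Lrig1, a brake on the EGF receptor, was 7.99, 8.04 and 6.99 against 8.68, 8.76 and 8.32 (-0.91 ± 0.12). Rgmb, a co-receptor of bone morphogenetic proteins, was 6.69, 6.27 and 6.42 against 7.68, 6.93 and 7.39 (-0.87 ± 0.13). These 3 did not overlap between the populations. Not all lower members were highest in Lgr5-positive cells. Aqp4 and Clca4a had their highest mean in double-negative cells (9.61 and 8.03) and their lowest in double-positive cells (5.52 and 3.90). Slc26a3 of the colonocyte list had the same order. Lrig1 and Rgmb had their highest mean in Lgr5 single-positive cells. The tetraspanin Tspan8 differed by -1.20 ± 0.17 and the ion transporter Slc12a2 by -0.78 ± 0.10. Ascl2, the factor that maintains Lgr5 cells, differed by -0.36 ± 0.10. Smoc2 was 8.97, 8.44 and 8.46 against 8.96, 9.0 and 8.77 and was not called, and neither were Sox9 (0.05 ± 0.07) and Bmi1 (0.09 ± 0.10). The higher members were Sp5, Znrf3, Msi1, Axin2, Tnfrsf19 and Mex3a. Without the pairing 4 stem cell genes were lower, Aqp4, Clca3b, Tspan8 and Rgmb, and none higher. Lrig1, Slc12a2 and Ascl2 had an adjusted p of 0.121, 0.115 and 0.125 then, and Ascl2 also lost its call without MKL358 (0.0927) and MKL367 (0.245). After quantile normalization 9 stem cell genes were higher and 9 lower.

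Targets and feedback regulators of Wnt signalling split along another line, with 14 of 34 higher, 6 lower and a median of 0.15. Among all genes 6.72% were higher. The higher ones included secreted and membrane inhibitors of the pathway, Apcdd1 above among them. Dkk2, which blocks the Wnt co-receptors, was 7.02, 6.49 and 7.21 against 5.60, 4.78 and 5.52 (1.61 ± 0.11, limma adjusted p = 7.57e-06). Notum, an enzyme that strips Wnt ligands of their lipid, was 9.0, 8.45 and 9.05 against 7.75, 7.18 and 8.15 (1.14 ± 0.13). Wif1, which binds Wnt ligands outside the cell, was 9.74, 8.95 and 9.77 against 8.52, 6.95 and 9.08 (1.30 ± 0.22). The pools did not overlap for Dkk2 and Notum, and overlapped for Wif1. Dkk3, a relative of Dkk2, differed by 1.32 ± 0.12. Nkd1, an inhibitor inside the cell, differed by 1.08 ± 0.12, and Znrf3, which removes Wnt receptors from the surface, by 0.88 ± 0.13. Axin2, the scaffold induced by the pathway it limits, was 9.55, 9.56 and 9.67 against 9.05, 9.18 and 9.38 (0.39 ± 0.06, adjusted p = 0.00131). Without the pairing the adjusted p was 0.0834 for Nkd1, 0.0880 for Znrf3 and 0.0830 for Axin2.

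The transcription factors of the pathway differed in direction. Lef1, a factor that binds DNA with beta-catenin, was 7.54, 6.77 and 7.56 against 5.88, 4.59 and 6.21 (1.73 ± 0.19, limma adjusted p = 0.000106). Sp5, a zinc-finger target of Wnt signalling, was 7.16, 6.46 and 7.76 against 6.17, 5.84 and 6.72 (0.89 ± 0.11). Prox1, a homeobox factor of adenomas, was 10.40, 10.08 and 10.54 against 9.41, 9.06 and 9.74 (0.93 ± 0.12). Lef1 and Prox1 did not overlap, while the MKL358 pool lowest in Sp5 lay within the range of the other population. Tcf4, an E-box factor distinct from the beta-catenin partner of that name, was higher by 0.88 ± 0.09 and is counted among the higher genes of the list. Tcf7l2 and Tcf7l1, both beta-catenin partners, were lower by -0.38 ± 0.08 and -0.66 ± 0.16. The lower members also held Lgr5, on which the populations were sorted, and Ascl2, Cd44 and Sfrp2. The call of Cd44 was lost in 12 of the alternatives, among them those without MKL347 (0.174) and MKL367 (0.128), that of Tcf7l1 without MKL347 (0.146), that of Tcf7l2 without MKL358 (0.0721) and that of Sfrp2 without MKL358 (0.0871) and MKL367 (0.0974). Over the fits without a mouse or an array 13 to 15 Wnt targets were higher and 2 to 4 lower. Without the pairing 3 genes of the list were higher, Dkk2, Apcdd1 and the E-box factor Tcf4, and 1 was lower, Tcf7l2. The adjusted p was then 0.0533 for Lef1, 0.0520 for Dkk3, 0.0794 for Notum, 0.205 for Wif1, 0.0583 for Prox1 and 0.202 for Sp5.

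Promoter sequences of RefSeq (GRCm38), 250 bases upstream of the start, were searched for the core of the TCF/LEF motif, CTTTGA or its reverse complement TCAAAG. Of the 14 higher Wnt genes 8 had a promoter in the table, and 3 of the 8 held the core (Sp5, Lef1 and Tnfrsf19), as did 13.2% of the promoters of 10123 tested genes. Stretches of 2 of them are shown because both genes belong to the pathway and differed in all 3 mice, and because they carry the core more than once. They are Sp5 at chr2:70474713-70474922 and Lef1 at chr3:131156104-131156293, both on the plus strand, ending at the base before the start, with the core in capitals.
Sp5: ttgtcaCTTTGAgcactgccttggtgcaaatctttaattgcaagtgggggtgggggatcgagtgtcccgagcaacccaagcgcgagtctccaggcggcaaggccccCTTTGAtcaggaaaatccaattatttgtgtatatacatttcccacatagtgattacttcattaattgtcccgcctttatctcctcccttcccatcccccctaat
Lef1: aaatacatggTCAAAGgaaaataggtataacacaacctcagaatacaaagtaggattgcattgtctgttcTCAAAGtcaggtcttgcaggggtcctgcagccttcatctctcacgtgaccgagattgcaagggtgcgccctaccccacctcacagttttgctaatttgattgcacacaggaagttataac
The same core stood in 5 of the 9 largest falls with a promoter in the table, among them Slc26a3 and Fabp2, whose stretches are chr12:31438069-31438218 and chr3:122894922-122895071, plus strand.
Slc26a3: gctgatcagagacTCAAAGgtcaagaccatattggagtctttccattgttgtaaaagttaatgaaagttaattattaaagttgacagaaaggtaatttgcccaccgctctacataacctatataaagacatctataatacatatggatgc
Fabp2: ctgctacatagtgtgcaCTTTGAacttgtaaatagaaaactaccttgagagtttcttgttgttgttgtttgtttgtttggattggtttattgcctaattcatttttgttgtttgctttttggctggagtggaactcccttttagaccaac
The core was present in 23.5% of 81 promoters of genes called at least 2-fold higher and in 15.5% of 142 of those at least 2-fold lower, and a match of these letters is a description and not a binding site. The HNF4 half-site CAAAGTC or GACTTTG, which shares letters with the TCF/LEF core, stood in 4.20% of the promoters of tested genes, in 2 of the 10 largest rises with a promoter and in none of the 9 largest falls. In the larger sets it stood in 8.64% of the 81 and 7.04% of the 142 promoters, with little contrast. The second marked core of Lef1 overlaps such a half-site. The core of the metal response element, TGCNCNC or GNGNGCA, stood in 56.4% of tested genes, in 6 of the 10 largest rises and in 6 of the 9 largest falls.

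The core of the CDX motif, TTTATG or its reverse complement CATAAA, was found in 17.6% of the 142 promoters of genes at least 2-fold lower, in 6.17% of the 81 at least 2-fold higher and in 7.90% of those of all tested genes. Over all promoters searched, of tested genes or not, the share with this core was 12.4%. It stood at the same distance from the start, 31 bases, in Saa1 and Saa2, adjacent genes without a coding gene between them. Here too a match of letters is a description and not a binding site. Whether a CDX factor binds there, or the letters serve another part of the promoter, was not tested. Their last 120 bases before the start are shown because they are nearly the same letters, with 4 single-base changes, insertions or deletions between them. They are chr7:46742981-46743100 (Saa1, minus strand) and chr7:46751713-46751832 (Saa2, plus strand), with the CDX core in capitals.
Saa1: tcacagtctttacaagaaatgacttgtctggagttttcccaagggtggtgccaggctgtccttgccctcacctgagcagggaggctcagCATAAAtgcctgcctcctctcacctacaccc
Saa2: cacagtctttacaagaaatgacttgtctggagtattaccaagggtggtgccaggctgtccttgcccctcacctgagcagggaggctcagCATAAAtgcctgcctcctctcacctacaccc

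Among 14 Wnt ligands, 3 were higher and none lower. Wnt10a was 6.01, 5.71 and 7.01 against 4.32, 4.23 and 4.67 (1.83 ± 0.16, limma adjusted p = 2.01e-05), with 2 of the 3 Lgr5 single-positive pools below the filter level. Wnt6, a ligand of the same family, was 6.36, 6.05 and 6.36 against 5.45, 5.47 and 5.61 (0.74 ± 0.13). Wnt16 was 5.62, 5.82 and 5.93 against 5.15, 5.14 and 5.37 (0.57 ± 0.12). The pools overlapped for none of the 3. The call of Wnt16 was lost without the pairing (adjusted p = 0.0589) and without MKL358 (0.0505). Of 15 receptors and agonists, Fzd5, a frizzled receptor, was 6.48, 6.40 and 6.27 against 7.66, 7.16 and 6.82 (-0.83 ± 0.13, adjusted p = 0.001), and the difference was -0.41 with the mean of all probe sets. Lgr4, the close relative of Lgr5, was lower by -0.40 ± 0.10 and Rspo4 was higher by 0.36 ± 0.11, and both lost their calls without the pairing (0.496 and 0.197) and without each mouse (0.0549 to 0.0661 and 0.118 to 0.131). With the mean of all probe sets the difference of Lgr4 was -0.19. Of the Mex3 family, Mex3c went against Mex3a, at 6.26, 6.26 and 5.76 against 6.71, 6.67 and 6.07 (-0.39 ± 0.11). Its call too was lost without the pairing (0.244) and without each mouse (0.155 for MKL347, 0.0832 for MKL358 and 0.0650 for MKL367).

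By construction the difference between the single-positive populations equals the average Mex3a difference (6 Mex3a-positive against 6 Mex3a-negative arrays) minus the average Lgr5 difference. For Apcdd1 the average Mex3a difference was 2.42 and the average Lgr5 difference 0.01. For Lef1 they were 1.94 and 0.21, and for Aqp4 -3.68 and -0.41. For Sfrp2, a secreted Wnt regulator, they were 0.20 and 0.80, and for Lgr5 itself 0.82 and 1.55. Of the 2721 called genes with 1 sign in all mice, 111 had the larger average difference for Lgr5 (over all 12595 genes the Lgr5 difference was called higher for 1.18% and lower for 0.627%, and the Mex3a difference for 15.9% and 25.3%), 84 of them lower and 27 higher in Mex3a single-positive cells.

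**Figure D4:**
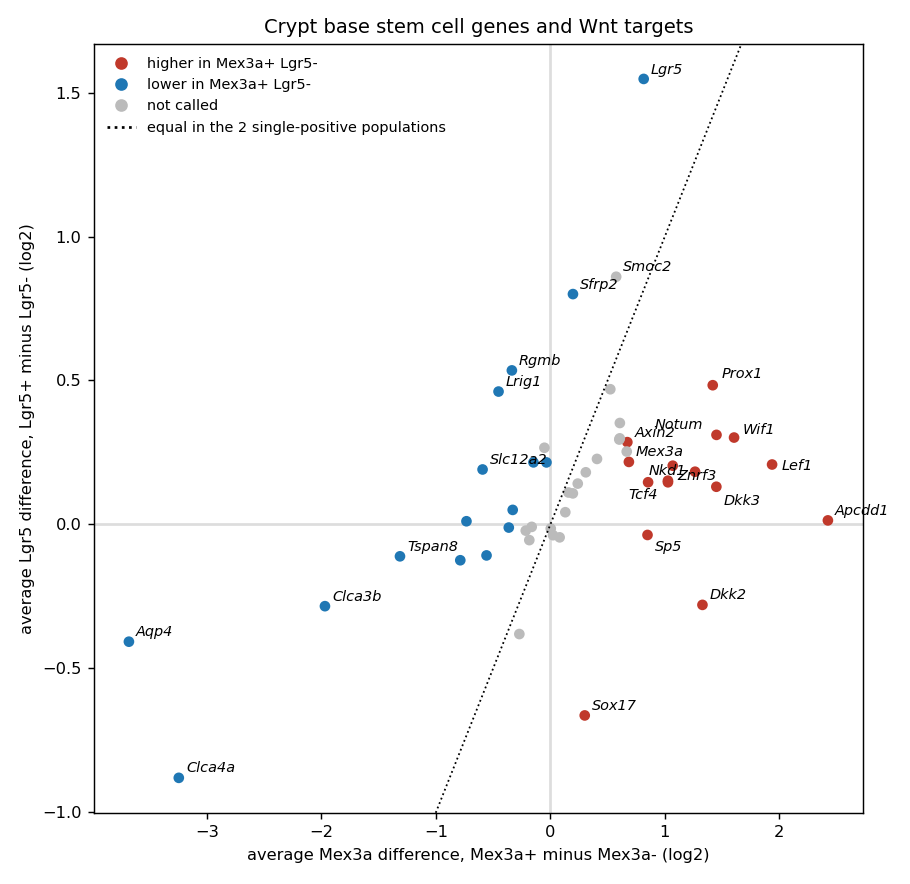
Average Mex3a difference (x axis) against average Lgr5 difference (y axis), both log2 over 6 against 6 arrays, for crypt base stem cell genes and Wnt targets. Genes to the right of the dotted line are higher in Mex3a single-positive cells and genes to its left are lower. The points spread widely along the x axis (Aqp4 at -3.68, Apcdd1 at 2.42), and Lgr5 has the largest value on the y axis at 1.55.

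The 8 largest falls among these included Lrig1 and Rgmb, described above, and 7 of the 8 had their highest mean in Lgr5 single-positive cells (Cxcl13 in double-positive cells). The rule of choice fixes most of this. For a fall with the larger Lgr5 difference, the highest mean can lie only in Lgr5 single-positive or double-positive cells. Muc1, a membrane mucin, was 7.89, 8.71 and 7.96 in Lgr5 single-positive and 6.06, 7.22 and 6.75 in Mex3a single-positive pools (-1.51 ± 0.20, limma adjusted p = 0.000271). It averaged 7.50 in double-positive and 6.94 in double-negative cells. Capn8, a protease of gut mucous cells, was 6.90, 7.10 and 6.68 against 5.70, 5.89 and 5.32 (-1.25 ± 0.10), and averaged 6.05 in double-positive and 6.04 in double-negative cells. Rgcc, a regulator of cyclin-dependent kinase activity, was 6.63, 6.95 and 6.40 against 5.68, 5.51 and 5.29 (-1.17 ± 0.14). Muc1, Capn8 and Rgcc did not overlap and kept their calls in all alternative fits. Thbs2, a matrix glycoprotein also counted among the fibroblast markers, was 8.21, 8.38 and 7.91 against 6.82, 7.55 and 6.69 (-1.14 ± 0.11). Without the Lgr5 single-positive pool of MKL367, which was high in Col3a1, the Thbs2 difference was -1.16 and kept its call, and the part of fibroblasts in it was not tested. Ms4a10, a membrane protein of the intestine, differed by -0.83 ± 0.12 and the chemokine Cxcl13 by -0.86 ± 0.20. Both lost their calls without the pairing (adjusted p = 0.365 and 0.226), and Cxcl13 also without MKL367 (0.0546) or its Lgr5 single-positive pool (0.0524). Without the Mex3a single-positive pool of MKL358 the difference of Cxcl13 was -0.57.

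In the other direction, 7 of the 8 largest rises with the larger Lgr5 difference had their highest mean in Mex3a single-positive cells, and Casp4 had it in double-negative cells. For such rises the rule of choice leaves only Mex3a single-positive or double-negative cells as the place of the highest mean. Cdkl4, a kinase of the cyclin-dependent type, was 6.30, 6.97 and 6.85 in Mex3a single-positive and 5.83, 5.88 and 6.08 in Lgr5 single-positive pools (0.77 ± 0.14, limma adjusted p = 0.00228). It averaged 5.91 in double-positive and 5.94 in double-negative cells. Neto2, an accessory subunit of glutamate receptors, was 7.24, 7.14 and 7.20 against 6.66, 6.37 and 6.78 (0.59 ± 0.09). Cdkl4 and Neto2 did not overlap and kept their calls without the pairing. With the mean of all probe sets the difference of Cdkl4 was 0.36, that of Mylk 0.33 and that of Psmb9 0.28. Sox17, a factor of endoderm and a brake on Wnt signalling, was 5.09, 3.87 and 5.06 against 3.57, 3.34 and 4.22 (0.96 ± 0.19), with all Lgr5 single-positive pools and 1 Mex3a single-positive pool below the filter level. Mylk, which switches on myosin contraction, differed by 0.72 ± 0.20 and Onecut2, a liver and gut factor, by 0.65 ± 0.17. Irx4 differed by 0.53 ± 0.16, the inflammatory caspase Casp4 by 0.51 ± 0.13 and the immunoproteasome subunit Psmb9 by 0.45 ± 0.12. Without the pairing Sox17, Mylk, Onecut2, Irx4, Casp4 and Psmb9 had an adjusted p of 0.0970 to 0.482, and the last 5 also lost their calls without at least 1 mouse.

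**Figure D5:**
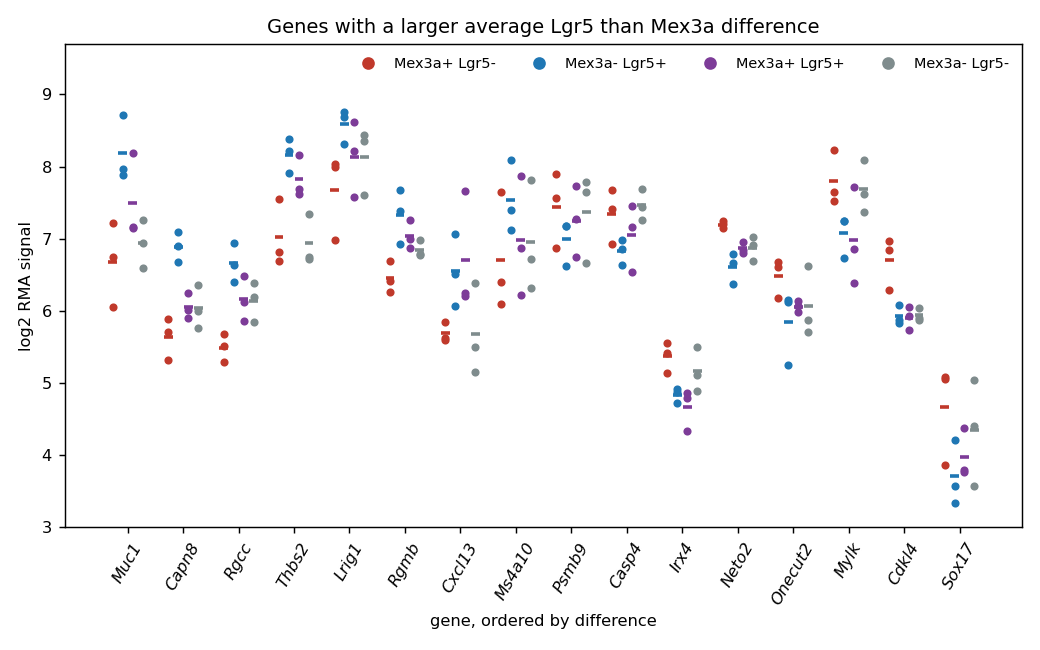
Log2 RMA signal of the 16 named genes whose average Lgr5 difference was larger in size than the Mex3a difference, on all 12 arrays by population, with bars for group means. Muc1, Capn8, Rgcc and Thbs2 are highest in Lgr5 single-positive cells (blue), and Cdkl4 and Neto2 are highest in Mex3a single-positive cells (red).

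Proliferation genes were lower or not called in Mex3a single-positive cells. Of 43 genes of DNA replication, 10 were lower and none higher (median -0.23), and of 38 genes of the G2 and M phases 9 were lower and none higher (median -0.15). Both shares are to be read against 14.9% lower among all genes. Pold2, a subunit of DNA polymerase delta, was 7.31, 6.96 and 6.78 against 7.83, 7.86 and 7.75 (-0.79 ± 0.11, limma adjusted p = 0.000293). Mcm6, a subunit of the replication helicase, was 6.90, 6.77 and 6.69 against 7.46, 7.56 and 7.26 (-0.64 ± 0.12). Ccna2, the cyclin of S phase and mitosis, was 9.49, 9.30 and 9.48 against 9.82, 9.77 and 9.80 (-0.38 ± 0.07). None of these 3 overlapped. Mki67, the usual mark of dividing cells, was 8.50, 8.47 and 8.60 against 9.01, 8.98 and 8.84 (-0.42 ± 0.09), and its call was lost without the pairing (adjusted p = 0.0678) and without MKL347 (0.0591). In the fits without a mouse or an array, 2 to 8 replication genes and 3 to 8 G2 and M genes were lower, and without the pairing 2 of each.

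Of 22 cell cycle inhibitors and dormancy genes, 3 were higher and 2 lower (median 0.04). The share called, 22.7%, is near the 21.7% of all genes. Cdkn1c, the imprinted inhibitor of cyclin-dependent kinases, was 9.49, 8.71 and 9.25 against 7.69, 7.70 and 7.76 (1.43 ± 0.16, limma adjusted p = 0.000111). Gadd45g, a growth arrest gene, was 9.20, 8.98 and 8.90 against 7.98, 8.45 and 8.14 (0.84 ± 0.12). Neither overlapped, and both calls held in all alternative fits. Gas1 (0.31 ± 0.10), Gas6 (-0.74 ± 0.18) and Cdkn1b (-0.33 ± 0.09) were called, and all 3 lost their calls without the pairing (adjusted p = 0.218, 0.140 and 0.264). Gas1 was also lost without each mouse (0.0571 to 0.258) and with no filter (0.0573), and Cdkn1b without MKL358 (0.121) and MKL367 (0.122).

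Genes of the respiratory chain were lower almost throughout, by small amounts. Of 33 subunits of complex I, 24 were lower and none higher (median -0.28), and of 36 subunits of complexes II to V, 34 were lower and none higher (median -0.30). Ndufa8 of complex I was 9.60, 9.58 and 9.39 against 10.13, 10.29 and 10.02 (-0.62 ± 0.06, limma adjusted p = 3.68e-05). Cyc1, cytochrome c1 of complex III, was 9.75, 9.63 and 9.64 against 10.10, 10.15 and 10.12 (-0.45 ± 0.06). Sdhb of complex II was 9.55, 9.44 and 9.44 against 9.88, 9.94 and 9.87 (-0.42 ± 0.06). The pools of these 3 did not overlap. Without the pairing 9 and 20 of the 2 lists were lower. After quantile normalization the counts were 14 and 24 and the medians -0.17 and -0.20, with none higher. Of 43 cytosolic ribosomal protein genes 15 were lower and none higher (median -0.12), but 1 without the pairing and 3 after quantile normalization.

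Drug handling genes differed in both directions, with 4 of 24 higher and 11 lower (median -0.52, but -0.06 with no filter on low signal). Abcc2, described above, was higher, while the related pump Abcc3 was 5.44, 6.02 and 5.20 against 6.94, 7.11 and 6.87 (-1.42 ± 0.16, limma adjusted p = 0.000109). Sult1b1, which attaches sulfate to drugs and thyroid hormone, was 5.37, 5.03 and 5.24 against 7.55, 7.03 and 6.56 (-1.83 ± 0.19). Abcg2, an efflux pump used to mark side population cells, was 3.66, 3.78 and 3.66 against 4.56, 4.48 and 4.25 (-0.73 ± 0.10). Abcc3 and Sult1b1 did not overlap, and all 3 Mex3a single-positive pools were below the filter level for Abcg2. Abcb1a differed by -0.87 ± 0.15 (-0.55 with the mean of all probe sets), with an adjusted p of 0.0551 without the pairing.

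The tubulins divided by isotype, with 4 of 11 higher and 1 lower. Tubb4a was 9.02, 8.30 and 9.06 against 7.37, 6.49 and 7.58 (1.65 ± 0.20, limma adjusted p = 0.000152). Tubb2a was 9.17, 8.94 and 9.11 against 8.07, 7.87 and 8.20 (1.03 ± 0.14), and Tuba1a differed by 0.64 ± 0.10 and Tubb6 by 0.44 ± 0.07. Tubb4a and Tubb2a did not overlap, and all 4 higher tubulins kept their calls in all alternative fits. The main beta-tubulin Tubb5 was not called (-0.07 ± 0.06). Vim, the intermediate filament of mesenchymal cells, was 10.73, 9.84 and 10.51 against 9.47, 8.20 and 9.41 (1.34 ± 0.14, adjusted p = 8.83e-05, but 0.0803 without the pairing). Of the other 10 mesenchymal transition genes measured, Foxc2 was called higher (0.76 ± 0.13, with a Lgr5 single-positive mean of 4.19 below the filter level, and adjusted p = 0.185 without the pairing) and none was called lower. Of 18 fibroblast markers 1 was higher (Mgp), 3 were lower (Thbs2, Prelp and Sfrp2) and 14 were not called (median -0.09), and 1, Thbs2, was called without the pairing. The share of fibroblast markers called, 22.2%, is near the 21.7% of all genes. The part of fibroblasts in the Vim difference was not tested.

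Stress and immune genes gave mixed results. Of 27 immediate early and dissociation genes, 7 were higher and 1 lower (median 0.19). The chaperone Hspb1 was 9.46, 9.62 and 10.23 against 7.96, 7.93 and 8.62 (1.60 ± 0.14, limma adjusted p = 2.01e-05) and kept its call without the pairing. Atf3 differed by 0.80 ± 0.13 and Egr1 by 0.59 ± 0.12, and both lost their calls then (0.0688 and 0.123). Of 37 interferon-induced genes, 6 were higher and 5 lower (median 0.05), against 6.72% higher and 14.9% lower among all genes, so that the lower share is near that of all genes. Usp18, which limits interferon signalling, was 7.24, 5.56 and 7.34 against 5.62, 4.05 and 5.65 (1.61 ± 0.19), and MKL358 was lowest in both populations. The populations overlapped for Usp18, and its adjusted p was 0.110 without the pairing. Irf8, a factor of immune cells and gut epithelium, was 6.84, 6.63 and 6.29 against 7.66, 7.51 and 7.20 (-0.87 ± 0.10) without overlap.

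Markers of other cell types were counted the same way, to be read against 21.7% of all genes called. The share called was 21.1% for endothelial markers, near that of all genes, and 14.3% for macrophage markers, below it. It was 5.56% for hormone cell genes, 8.33% for tuft cell genes and 40% for the 5 glia, neuron and mast cell markers. Of 5 glia, neuron and mast cell markers above the filter, Ret, a receptor of enteric neurons, was 5.15, 5.32 and 5.11 against 5.73, 5.80 and 5.59 (-0.52 ± 0.08, limma adjusted p = 0.00109) and kept its call in all alternative fits. Elavl3 was higher (0.28 ± 0.09) and lost its call without the pairing (0.137) and without each mouse (0.129 to 0.238). Of 14 macrophage markers, Ctss, a lysosomal protease also made by epithelium, was 7.12, 7.13 and 6.14 against 8.47, 8.32 and 8.10 (-1.50 ± 0.20, limma adjusted p = 0.000317), Cd14 was lower (-0.69 ± 0.14, but adjusted p = 0.0604 without the pairing) and none was higher. No neutrophil marker of 11 and no lymphocyte marker of 11 was called. Of 19 endothelial markers, Ecscr (0.70 ± 0.11), Flt1 (0.86 ± 0.21) and Ramp2 (0.12 ± 0.04) were higher and Plvap lower (-0.29 ± 0.09), and all 4 lost their calls without the pairing (0.0775 to 0.202). The summed linear signal of 24 endothelial markers was 5513 to 5758 in Mex3a single-positive and 4741 to 5231 in Lgr5 single-positive pools, which did not overlap. The mean log2 level of these markers, relative to the mean of each gene, did overlap (0.05 to 0.09 against -0.08 to 0.10). The part of endothelial cells in the other differences was not tested. The sum of 25 macrophage and other myeloid markers was 4022 to 4433 against 4295 to 4732, which overlapped. Of 18 hormone cell genes 1 was called, Cpe, which trims peptide hormones (1.59 ± 0.34, with all Lgr5 single-positive pools below the filter level), and of 12 tuft cell genes 1, Avil (0.89 ± 0.14). Without the pairing their adjusted p was 0.0809 and 0.0687.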

How the data were processed

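Log2 values were deposited by the authors, and per the submitters' processing notes they are RMA values (background correction, quantile normalization and probe set summary). The array build and software version are not stated there. Probe sets with 1 gene symbol (28898 of 45141) were used, the brightest standing for a gene, and genes above the 40th percentile of all values (4.40) on at least 3 arrays were kept. Means of the 4 populations over the 12 arrays were fitted in limma 3.58.1 (R 4.3.3) with a block for mouse and a trend of variance with intensity, with 6 residual degrees of freedom, and p-values were adjusted by Benjamini-Hochberg over 12595 genes. No array was dropped and no value imputed. The method was tested on simulated data.

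The pairing comes from the mouse number in the titles. Deviations from the population means correlated between the 2 arrays of a mouse at 0.453 to 0.562, against -0.432 to -0.0176 between mice. Centring on the population means makes the deviations of the mice cancel, which pushes the values between mice downward. The negative sign between mice is therefore no separate evidence for the pairing.

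The comparison, the gene lists and the rules were chosen with earlier results of these data known. Named genes are both sorted genes, the 15 largest rises and falls, the 8 largest in each direction with a larger Lgr5 than Mex3a difference, up to 6 members of each list by smallest p, and small families. Afp, Agr2, Ascl2, Axin2, Bmi1, Car1, Cd44, Epcam, Ly6e, Msi1, Nkd1, Prox1, Smoc2, Sox9, Spdef, Tcf7l1, Tcf7l2, Tff3, Tnfrsf19, Tubb5, Wif1 and Znrf3 fall outside it and were named after their values were seen. Alternatives changed the block, filter, normalization, probe set rule, trend, array weights and each mouse or array. The number of arrays limits the precision. With the block for mouse, p-values cover how population differences vary from mouse to mouse, and not the differences in level between mice, which the block removes. Figures were drawn with matplotlib 3.10.9.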

Additional observations from a re-analysis of the deposited data

Results flagged for a closer look

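Probe sets without a gene symbol, or with several, entered no comparison above. Of 8482 such probe sets that passed the same filter, 1134 (13.4%) were called by limma, 517 higher and 617 lower in Mex3a single-positive cells, against 21.7% of the named genes. They stand here because they carry signal outside the main measurement, and their genes were not named.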

How the results depend on the processing

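Without the replicate block (pairing by mouse) limma called 692 genes in place of 2728, 178 higher and 514 lower, and 196 with at least a 2-fold difference in place of 301. The differences of the sorted genes stayed 0.47 (Mex3a) and -0.73 (Lgr5) but lost their calls. Quantile normalization lowered the count of lower genes from 1882 to 1236. Without 1 mouse or 1 array, 1333 to 2038 genes were called, 438 to 656 higher, 895 to 1464 lower and 277 to 363 by at least 2-fold; fewer arrays enter these fits. The Mex3a difference then ran from 0.33 to 0.61 and the Lgr5 difference from -0.90 to -0.59. The other alternatives kept every count within 1.5 times its value (2314 to 3406 genes called; 3980 with every probe set tested on its own). Of 5136 pairs of a named called gene and an alternative, 4450 kept the call, 686 lost it and 0 reversed, and 102 of 273 named genes were called in all alternatives. Dim genes are limited by background: for 63 genes called higher and 47 called lower, one population averaged below the filter level.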

Other observations

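Several further gene groups held members that differed between the single-positive populations, to be read against 6.72% of all genes higher and 14.9% lower. Of 36 genes of bone morphogenetic protein and TGF-beta signalling 9 were higher and 3 lower in Mex3a single-positive cells (median 0.09), the lower ones a smaller share than among all genes, and without the pairing 1 was higher, Ltbp1, which stores TGF-beta in the matrix (1.57 ± 0.26, and 0.56 with the mean of all probe sets), and 1 lower, the signal carrier Smad4. Smad4 differed by -0.39 ± 0.07 (limma adjusted p = 0.00204). Of 23 Hox genes 7 were lower and none higher (median -0.20), and without the pairing 1 was lower, Hoxd9 (-0.65 ± 0.10). Of 18 integrins and laminins 6 were lower and 1 higher, and Itga2, a collagen receptor, differed by -0.74 ± 0.11. Of 26 adhesion and junction genes 10 were lower and 2 higher (median -0.20), and the claudin Cldn15 differed by -1.27 ± 0.16.

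Glycolysis genes did not follow one direction, with 3 of 20 higher and 8 lower (median -0.18), and without the pairing 1 was called. That gene was Aldoc, an aldolase best known from brain, at 8.34, 8.05 and 8.21 in Mex3a single-positive and 7.16, 7.14 and 7.05 in Lgr5 single-positive pools (1.08 ± 0.15, limma adjusted p = 0.000417; 0.54 with the mean of all probe sets). The pools did not overlap. Of 17 apoptosis regulators of the Bcl2 family 5 were higher and 2 lower (median 0.03). Bcl2l11, which encodes the death-promoting protein Bim, was 8.28, 7.68 and 8.26 against 7.25, 6.87 and 7.11 (1.0 ± 0.13), and it alone of the family was called without the pairing. Of 14 Sox factors 4 were higher and none lower, and Sox11, a factor of embryonic and neural cells, was 6.36, 6.41 and 6.85 against 5.67, 5.44 and 5.63 (0.96 ± 0.18). Of 16 genes of the EGF receptor family and its ligands, the ligand Tgfa was higher (0.60 ± 0.09, and 0.37 with the mean of all probe sets) and Erbb3 (-0.49), Lrig1 and Hbegf were lower. Lrig1 lost its call without the pairing (adjusted p = 0.121), and Hbegf without the pairing (0.510), MKL347 (0.196) or MKL367 (0.172). Of 20 Notch pathway genes 6 were lower and 1 higher (median -0.10), and Notch4 differed by -0.86 ± 0.11 (-0.50 with the mean of all probe sets).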
